A study of Mus musculus with 22 samples.

Results

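Among 36 mouse genes of meiotic recombination and the synaptonemal complex, 10 were lower and 1 was higher in whole testes lacking the transcription factor MLX than in WT testes, where 20.6% of all genes tested were lower and 24.8% higher. With libraries scaled by their size alone, 3 were lower and 4 higher, where 8.66% and 36.5% of all genes were. Scaled to spermatocyte markers, 3 were again lower and 4 higher, where 7.26% and 37.8% of all genes were. The 10 lower genes were *Syce2*, *Spo11*, *Syce1*, *Dmc1*, *Mus81*, *Sycp2*, *Stag3*, *Rec8*, *Sun1* and *Sycp3*, and each fell by between 10.8% and 22.8%. The higher gene was *Brca1*, by 13.3%. All of these differences were small, and 3 of them, in *Syce1*, *Syce2* and *Sycp2*, were past the threshold under every one of the 14 other ways of processing the counts that were tried. These 14 fits reuse the same libraries, and the share of all genes past the threshold under all 14 is not given here. The 36 genes were chosen by name for their known roles in meiosis, with earlier results of these data known, out of 17931 gene symbols in the deposited table.

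In meiotic prophase, chromosomes fold along protein axes held together by cohesin, and the enzyme SPO11 cuts their DNA at many sites. Recombinases such as DMC1 then lead the broken ends into the homologous chromosome, while the synaptonemal complex joins the axes of the homologs along their length. Some of the exchanges mature into crossovers, which hold the homologs together until the first division. In the testis these steps take place in spermatocytes, and loss of many of these genes one at a time arrests meiosis and makes male mice sterile. MLX is a member of the MYC network of bHLHLZ factors and pairs with MondoA, ChREBP and some MXD proteins to bind DNA at E-boxes.

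RNA was sequenced from the testes of 3 WT males that were proven breeders and 3 MLXKO males, in pairs of littermates aged 7 months. The MLXKO males carried a constitutive deletion of exons 3 to 6 of *Mlx*, which encode the DNA-binding and dimerization domain, made in 129S4 embryonic stem cells and deleted with Meox2-Cre, which was later crossed out. Every cell type of these animals lacks the region, so germ cells and the somatic cells around them carry the same deletion. The unit used below is CPM, counts scaled to a common library size after adjustment by the trimmed mean of M values (TMM), and values are always given for libraries 1, 2 and 3 in that order. LFC is the log2 fold change of MLXKO against WT, and a gene is past the threshold, or called, when its Benjamini-Hochberg adjusted p is under 0.05 (quasi-likelihood test of edgeR, 14640 genes tested).

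The libraries held 16674678 to 19742726 counts. Counts of *Mlx* were 128, 96 and 98 for WT against 94, 109 and 102 for MLXKO (LFC -0.18, SE 0.14, adjusted p = 0.326). They do not check the genotype, because exon 7 remains in the allele and the last exons of *Mlx* and *Psmc3ip* overlap. All marker lists used to check the tissue were detected in every library. Summed over 10 markers of elongating spermatids, the level was 23235 to 24237 CPM in WT and 13802 to 16818 CPM in MLXKO. Summed over 10 Sertoli markers it was 1051 to 1099 CPM in WT and 1598 to 1947 CPM in MLXKO, over 7 Leydig markers 840.5 to 866 CPM in WT and 1822 to 2388 CPM in MLXKO, and over 9 macrophage markers 78.6 to 83.9 CPM in WT and 168 to 173 CPM in MLXKO. All 7 round spermatid markers were lower (median LFC -0.25), 4 of 5 peritubular and endothelial markers were higher (median LFC 0.56), and of 11 spermatogonial markers 2 were lower and 2 higher. Of the 9 spermatocyte markers, none of them among the 36 genes, 8 were lower in MLXKO, with a median LFC of -0.16. These shifts accompany every result given here, their part in it was not tested, and in RNA from a whole organ fewer cells of a type and less RNA per cell cannot be told apart.

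All 36 genes had reads in all 6 libraries and 35 had enough for the test. *Mei4*, needed for break formation, was not tested, with 5, 15 and 15 counts for MLXKO against 8, 3 and 5 for WT. Of the 35, 10 were called lower, or 28.6%, where 20.6% of all genes tested were called lower. One (*Brca1*) was called higher, or 2.86%, where 24.8% of all genes were. The LFC was below 0 for 28 of the 35, with a median of -0.15 and a range from -0.37 to 0.22, beside a median of 0.025 over all genes. The 3 MLXKO libraries all lay under all 3 WT libraries for 17 of the 35 genes, or 48.6%, beside 25.9% of all genes, and all lay above them for 1 gene, beside 30.3%.

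**Figure D1:**
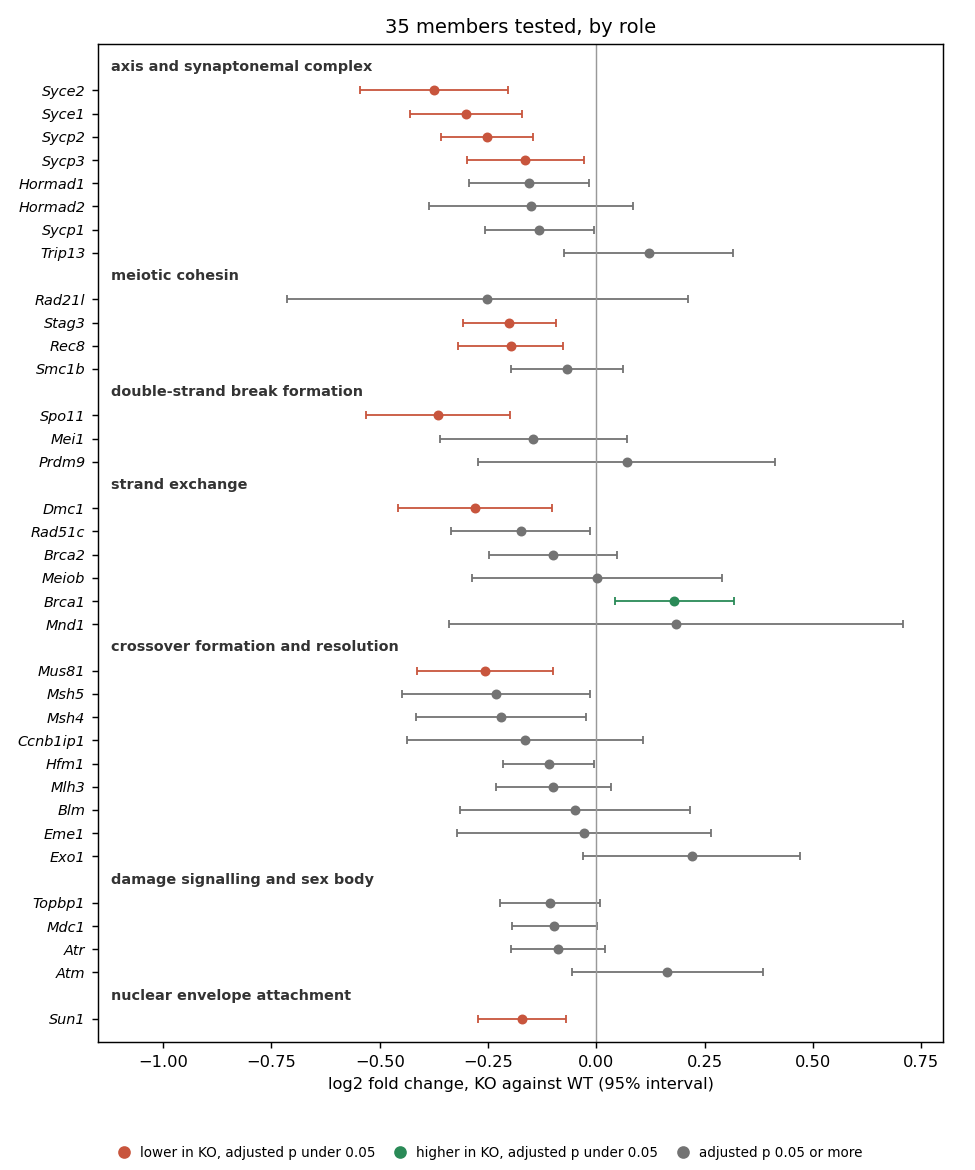
LFC of MLXKO against WT (x axis, log2 units) for the 35 genes tested, grouped by role, with 95% intervals from edgeR; red marks genes called lower, green the gene called higher and grey the rest. The points run from -0.37 for *Syce2* to 0.22 for *Exo1*, and 28 of 35 lie below 0.

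The direction of this small shift depends on how the libraries are scaled. With TMM the factors were 0.943 to 0.961 in WT and 1.02 to 1.07 in MLXKO. With library size alone, the median LFC of all genes rose from 0.025 to 0.16 and that of the 35 genes from -0.15 to -0.0062. Then 3 of the 35 genes were called lower (*Sycp2*, *Syce1* and *Syce2*) and 4 higher (*Brca1*, *Exo1*, *Atm* and *Trip13*), where 8.66% and 36.5% of all genes were. Scaled to the 9 spermatocyte markers, the same 3 and 4 genes were called, beside 7.26% and 37.8% of all genes, and the median of the 35 was 0.0087. The distance between the median of the 35 and that of all genes was -0.17 in each of these fits. A change of scaling shifts the LFC of every gene by nearly the same amount, so this distance could hardly have changed. As a share of all counts, the 36 genes took 0.395% to 0.413% in WT and 0.391% to 0.402% in MLXKO libraries, and these ranges overlapped.

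**Figure D2:**
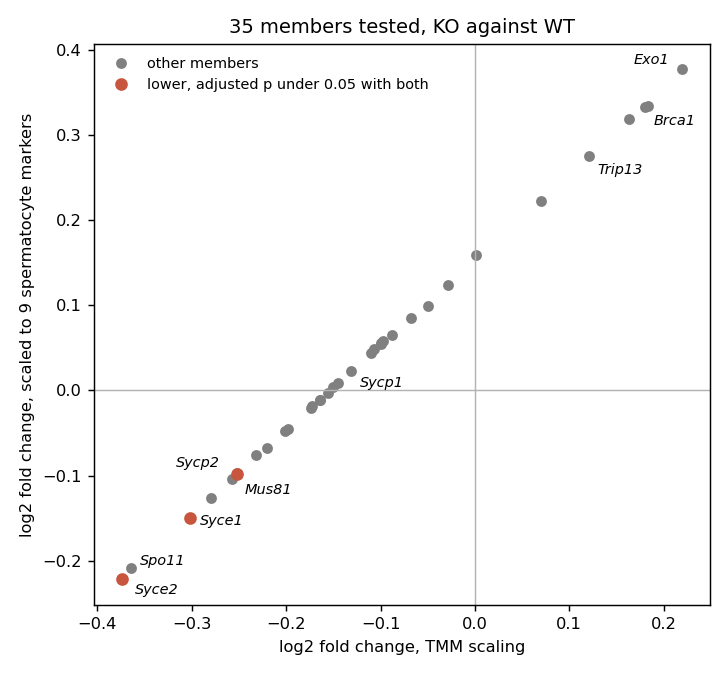
LFC of the 35 genes with TMM scaling (x axis) against scaling to 9 spermatocyte markers (y axis), both in log2 units; red marks the genes called lower with both. The points lie close to a straight line, because a change of scaling shifts every LFC by nearly the same amount. Their median moves from -0.15 on the x axis to 0.0087 on the y axis.

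The members differ widely in level. Per kb of exon, *Syce1* had the highest level in WT, at 265 CPM per kb, followed by *Sycp3* at 120, *Stag3* at 118, *Smc1b* at 83.4 and *Hormad1* at 81.1. The lowest after *Mei4* were *Prdm9*, at 1.36 CPM per kb, *Exo1* at 1.55 and *Rad21l* at 1.75. Structural proteins of axes, cohesin and synaptonemal complex thus fill the top of this order, and *Prdm9*, *Rad21l* and *Mnd1* near its foot rested on at most 128 counts a library.

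**Figure D3:**
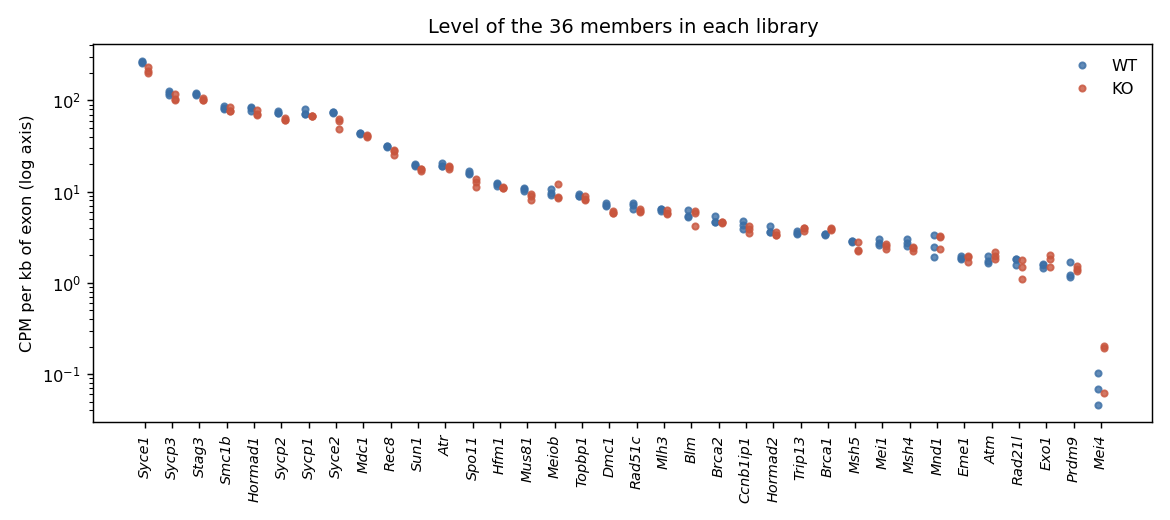
Level of each of the 36 genes in CPM per kb of exon (y axis, log scale), ordered by the WT mean; each point is 1 library, blue for WT and red for MLXKO. *Syce1* stands highest and *Mei4* lowest, and the genotypes differ by far less than the genes do.

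The 3 decreases past the threshold under all 14 alternatives were in genes of the synaptonemal complex. *Syce2*, whose product forms the central element between the paired axes, had 144, 147 and 146 CPM in WT and 117, 96.1 and 124 CPM in MLXKO (LFC -0.37, SE 0.078, adjusted p = 0.00266). The 3 WT values lay within 3 CPM of each other and well above all MLXKO values. *Syce1*, a second central element gene, had 388, 393 and 379 CPM in WT and 342, 294 and 305 CPM in MLXKO (LFC -0.30, SE 0.059, adjusted p = 0.00181). *Sycp2*, of the lateral elements that form on the axes, had 458, 432 and 439 CPM in WT and 386, 362 and 368 CPM in MLXKO (LFC -0.25, SE 0.049, adjusted p = 0.00169). For both genes every MLXKO library lay below every WT library, and the decrease was present in 3 of 3 pairs. Their calls held with library size alone (LFC -0.24 for *Syce2*, -0.16 for *Syce1* and -0.11 for *Sycp2*) and without any single library.

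*Sycp3*, the partner of *Sycp2* in the lateral elements, had 159.5, 151 and 145 CPM in WT and 147, 132 and 128 CPM in MLXKO (LFC -0.16, SE 0.061, adjusted p = 0.0473). Its groups overlapped, because KO1 lay above WT3. The call was lost without WT1 (adjusted p = 0.168), WT2 (0.102), KO2 (0.164) or KO3 (0.201). Of the exon bases of *Sycp3*, 52.2% lie opposite exons of *Chpt1*, a phospholipid synthesis gene whose LFC was -0.32, and whether the counting used strand is not given in the sources used here, so their reads cannot be told apart. *Sycp1*, the transverse filament that spans from axis to central element, had 253, 287 and 251 CPM in WT and 240.0, 239 and 243 CPM in MLXKO (LFC -0.13, SE 0.058, adjusted p = 0.0837). All 3 MLXKO values lay below the WT values, but the gene was not past the threshold and its LFC was 0.0088 with library size alone.

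Of the regulators of the axis, none was called. *Hormad1*, which marks axes that have not yet synapsed, had 147, 141 and 132 CPM in WT and 137, 119 and 122 CPM in MLXKO (LFC -0.16, SE 0.063, adjusted p = 0.0630), with overlapping groups. It was called lower with the replicate block (adjusted p = 0.0377 in edgeR and 0.0496 in DESeq2), without KO1 (0.00534) and without WT3 (0.0437). *Hormad2*, its paralog, had an LFC of -0.15 (adjusted p = 0.276), which turned to 0.0045 with spermatocyte scaling. *Trip13*, the ATPase that strips HORMA proteins from synapsed axes, had 12.8, 12.1 and 12.1 CPM in WT and 12.7, 13.7 and 13.8 CPM in MLXKO (LFC 0.12, SE 0.089, adjusted p = 0.290). It was among the 4 genes called higher with library size alone, at an LFC of 0.26.

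Meiotic cohesin was lower in 2 of its 4 genes. *Stag3*, the meiosis-specific HEAT-repeat subunit, had 672, 695 and 659 CPM in WT and 609, 573 and 581 CPM in MLXKO (LFC -0.20, SE 0.049, adjusted p = 0.00613). *Rec8*, a kleisin subunit that closes the ring, had 93.1, 93.6 and 89.4 CPM in WT and 83.6, 74.6 and 82.5 CPM in MLXKO (LFC -0.20, SE 0.055, adjusted p = 0.0125). In both, the 3 MLXKO libraries lay below all WT libraries. *Smc1b*, the meiotic SMC subunit, had 354, 336 and 323 CPM in WT and 346, 313 and 307 CPM in MLXKO (LFC -0.068, SE 0.059, adjusted p = 0.372), with overlapping groups, and its LFC turned to 0.070 with library size alone. *Rad21l*, a second meiotic kleisin, rested on 35 to 58 counts a library, with an LFC of -0.25 and a 95% interval from -0.71 to 0.21. The call of *Rec8* was lost without WT2 (adjusted p = 0.0505) or KO2 (0.0692).

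E-boxes, the sites that dimers of the MYC network bind, are shown for 3 members of the axis and complex that hold them upstream of every annotated start. RefSeq promoters, 250 bases before to 50 bases after a start in GRCm38.p6 (mm10), were matched for 33 of the 36 members. The letters CACGTG, which read the same on both strands, were found in 6 of the 33 (*Sycp1*, *Sycp3*, *Hormad1*, *Stag3*, *Syce2* and *Eme1*), or 18.2%, beside 10.1% of 13707 genes of the table. The stretches below are from the gene's own strand, upstream of the start, with CACGTG in capitals: *Sycp1* at chr3:102936174-102936209 on the minus strand, *Sycp3* at chr10:88459508-88459564 and *Hormad1* at chr3:95559605-95559676, both on the plus strand.
Sycp1: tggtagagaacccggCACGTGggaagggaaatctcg
Sycp3: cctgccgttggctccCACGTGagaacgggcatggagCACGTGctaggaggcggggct
Hormad1: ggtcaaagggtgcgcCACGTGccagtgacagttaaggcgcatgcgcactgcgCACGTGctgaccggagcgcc
The first base of CACGTG lies 94 bases before the *Sycp1* start, 64 and 43 before that of *Sycp3*, and 57 and 20 before that of *Hormad1*. Of the 6 genes with CACGTG, *Sycp3*, *Stag3* and *Syce2* were called lower, and *Sycp1*, *Hormad1* and *Eme1* were not called. *Syce1* and *Sycp2*, 2 of the 3 genes called under all alternatives, have no CACGTG in this window. The third, *Syce2*, has one that begins 88 bases before one of its starts but downstream of another, so its sequence is not shown. The cAMP response element TGACGTCA, searched on both strands, was found in *Brca2* and *Rad51c*, or 6.1% of the 33, beside 2.9% of genes of the table. AACNG, the core bound by MYB factors, was found on either strand in 97.0% of the 33 and in 81.4% of genes of the table. These are matches of letters, not measured binding. Binding of MLX in testes was measured by ChIP-seq in the same series, and those samples were not used here.

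Of the genes that make double-strand breaks, *Spo11*, the catalytic subunit, had 66.8, 62.2 and 61.7 CPM in WT and 43.9, 49.7 and 54.5 CPM in MLXKO (LFC -0.36, SE 0.075, adjusted p = 0.00255). It is, with *Syce2*, one of the 2 members that fell by more than 20%, and all 3 MLXKO libraries lay below all WT libraries. With library size alone its LFC was -0.22 (adjusted p = 0.0580). *Prdm9*, the histone methyltransferase that sets where breaks fall in mouse, had 5.32, 5.02 and 7.22 CPM in WT and 6.55, 6.14 and 5.77 CPM in MLXKO (LFC 0.070, SE 0.16, adjusted p = 0.742), with overlapping groups and a 95% interval from -0.27 to 0.41, and its LFC turned to -0.025 without WT2. *Mei1*, also needed for breaks, had an LFC of -0.15 (adjusted p = 0.251), which turned to 0.0087 with spermatocyte scaling.

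In strand exchange, *Dmc1*, the meiosis-specific recombinase, had 18.2, 17.5 and 17.1 CPM in WT and 15.1, 14.2 and 14.3 CPM in MLXKO (LFC -0.28, SE 0.081, adjusted p = 0.0154). The groups did not overlap. The call was lost with the block in DESeq2 (adjusted p = 0.125), and without WT1 (0.0588), KO2 (0.0585) or KO3 (0.0569). *Rad51c*, which acts in homologous recombination, had 28.5, 31.3 and 32.5 CPM in WT and 28.4, 27.1 and 26.4 CPM in MLXKO (LFC -0.17, SE 0.073, adjusted p = 0.0724), with groups that did not overlap. *Mnd1* and *Meiob*, of which the first works with the HOP2 protein beside DMC1 and the second binds single-stranded DNA, had LFCs of 0.18 and 0.0014. Both had overlapping groups, and the LFC of *Meiob* changed sign under 8 of 14 alternatives.

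*Brca1*, which promotes homologous recombination and acts on unsynapsed chromosomes, was the only member called higher, with 29.4, 28.5 and 29.5 CPM in WT and 34.0, 32.9 and 32.2 CPM in MLXKO (LFC 0.18, SE 0.063, adjusted p = 0.0351). All 3 MLXKO values lay above all WT values, in 3 of 3 pairs. The call was lost with the replicate block (adjusted p = 0.0503 in edgeR and 0.381 in DESeq2) and without any one library (0.0527 to 0.116, the lowest without KO3 and the highest without WT2). The gene lies 397 kb from *Mlx* on chromosome 11, the locus targeted in 129S4 cells, and the part of linked sequence of that strain in the value was not tested. *Brca2*, which loads the recombinases, had 74.6, 63.5 and 62.8 CPM in WT and 62.3, 62.7 and 62.7 CPM in MLXKO (LFC -0.10, SE 0.067, adjusted p = 0.247), and although the groups were apart, its LFC turned to 0.039 with library size alone.

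Among the crossover genes, *Mus81*, a nuclease that resolves joint molecules, was called lower, with 38.6, 37.7 and 36.3 CPM in WT and 33.4, 32.1 and 28.7 CPM in MLXKO (LFC -0.26, SE 0.071, adjusted p = 0.0123). The groups did not overlap, and the call was lost without KO3 (adjusted p = 0.0629). Of its exon bases, 4.9% lie opposite *Efemp2*, an extracellular matrix gene with an LFC of 0.71. *Eme1*, the partner of *Mus81*, had an LFC of -0.029 (95% interval from -0.32 to 0.27). *Msh4* and *Msh5*, which form the dimer that stabilizes crossover intermediates, were both not past the threshold, although in both all MLXKO values lay below all WT values. *Msh4* had 17.5, 20.7 and 18.7 CPM in WT and 16.5, 15.4 and 16.9 CPM in MLXKO (LFC -0.22, SE 0.089, adjusted p = 0.0635). *Msh5* had 15.5, 16.0 and 16.1 CPM in WT and 12.7, 15.3 and 12.5 CPM in MLXKO (LFC -0.23, SE 0.10, adjusted p = 0.0757). *Hfm1*, a helicase needed for crossovers, had an LFC of -0.11 (adjusted p = 0.0827), also with groups apart. *Mlh3*, *Ccnb1ip1* and *Blm*, which act at late crossover sites, in crossover selection and in dissolving joint molecules, had LFCs of -0.10, -0.16 and -0.050, with overlapping groups. With library size alone the LFCs of *Hfm1*, *Mlh3*, *Eme1* and *Blm* turned positive, to 0.029, 0.041, 0.11 and 0.087. *Exo1*, an exonuclease, had 12.3, 13.5 and 13.3 CPM in WT and 12.7, 17.2 and 15.6 CPM in MLXKO (LFC 0.22, SE 0.11, adjusted p = 0.139), with overlapping groups, and it was called higher without KO1 (adjusted p = 0.0117).

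None of the 4 genes of damage signalling and the sex body was called. *Atr*, the kinase that drives silencing of unsynapsed chromatin, had 481, 457 and 451 CPM in WT and 447, 419.8 and 439 CPM in MLXKO (LFC -0.088, SE 0.049, adjusted p = 0.166). *Mdc1*, which spreads the histone mark of damage over the sex chromosomes, had 320.4, 326 and 323 CPM in WT and 294, 306 and 306 CPM in MLXKO (LFC -0.10, SE 0.044, adjusted p = 0.0970). In both the groups were apart by a small margin, and both LFCs turned positive with library size alone, to 0.050 and 0.043. *Topbp1*, an activator of ATR, had an LFC of -0.11, and of 0.034 with library size alone. *Atm*, the kinase that limits break number, had 20.6, 17.0 and 17.8 CPM in WT and 18.7, 20.5 and 22.8 CPM in MLXKO (LFC 0.16, SE 0.10, adjusted p = 0.207). *Sun1*, which ties telomeres to the nuclear envelope so that homologs can find each other, had 149, 153 and 145 CPM in WT and 133, 129 and 134 CPM in MLXKO (LFC -0.17, SE 0.046, adjusted p = 0.0108), with groups that did not overlap. Its call was lost without WT2 (adjusted p = 0.0545) or KO2 (0.0578).

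**Figure D4:**
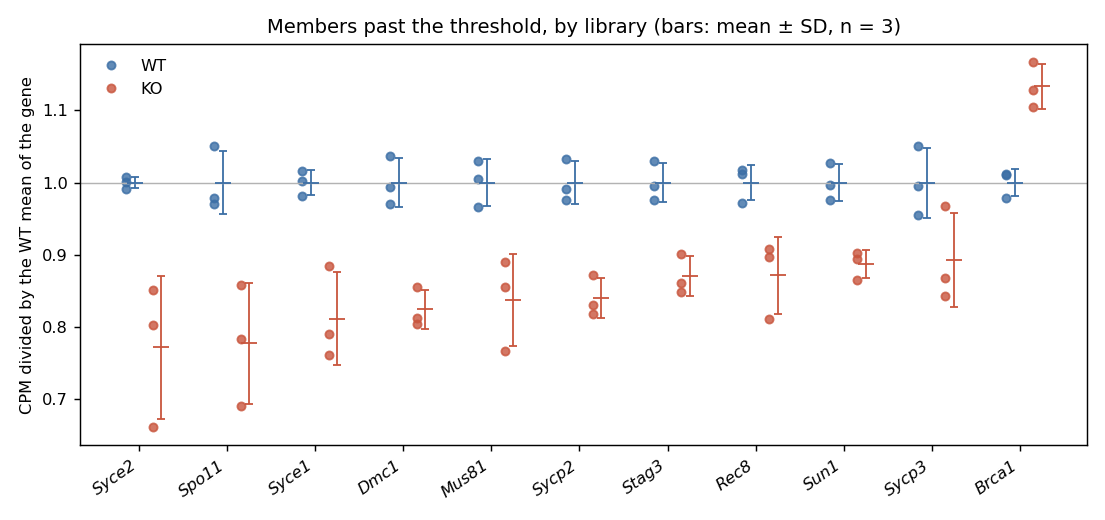
CPM of each library divided by the WT mean of its gene (y axis, not starting at 0) for the 11 genes called; points are libraries, bars the mean ± SD (n = 3), blue for WT and red for MLXKO. In 10 of the 11 the groups do not overlap, and in *Sycp3* they do. The 11 were picked by the test on these same libraries, so groups apart add no further evidence for the calls.

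A list of 74 further genes of the same roles gave the setting. Of these, 14 were called lower, or 18.9%, beside 20.6% of all genes, and 3 higher, or 4.05%, beside 24.8%. The median LFC was -0.033, with 44 of 74 below 0. The largest decrease was in *Rpa1*, which coats single-stranded DNA, with 242, 237 and 237 CPM in WT and 183, 165 and 175 CPM in MLXKO (LFC -0.46, SE 0.050, adjusted p = 5.80e-05). *Rbbp8*, which starts resection of broken ends, had an LFC of -0.42, *Nipbl*, which loads cohesin, one of -0.34, *Ccdc155*, which joins SUN1 to the cytoskeleton, one of -0.28, and *Ehmt2*, a methyltransferase for histone H3, one of -0.27. *Psmc3ip* (HOP2) was also lower (LFC -0.20, SE 0.048, adjusted p = 0.00568), and 21.2% of its exon bases lie opposite those of *Mlx*. The other 8 called lower were *Slx4*, *Rtel1*, *Cntd1*, *Spdya*, *Cdk2*, *Spata22*, *Pds5b* and *Nbn*. *Cntd1* lies 187 kb from *Mlx*, and the part of linked sequence in its value was not tested. Of the exon bases of *Cntd1*, 70.2% lie opposite *Becn1*, and of those of *Spdya*, 18.3% lie opposite *Trmt61b*. *Spata22* shares 80.5% of its exon bases with *Gm49340* on the same strand.

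The 3 called higher were *Sun2*, *Smc1a* and *Rad21*. *Sun2*, of the nuclear envelope, had 41.9, 42.1 and 49.3 CPM in WT and 66.5, 73.9 and 72.6 CPM in MLXKO (LFC 0.68, SE 0.072, adjusted p = 4.58e-05). *Smc1a*, of somatic cohesin, had 9.96, 8.39 and 10.4 CPM in WT and 13.2, 16.2 and 14.6 CPM in MLXKO (LFC 0.61, SE 0.11, adjusted p = 0.00151). *Rad21*, its kleisin, had 113, 109 and 103 CPM in WT and 116, 121 and 126 CPM in MLXKO (LFC 0.16, SE 0.054, adjusted p = 0.0314). All MLXKO values lay above all WT values in each. *Stag1* and *Stag2*, also of somatic cohesin, had LFCs of 0.0078 (adjusted p = 0.912) and 0.079 (adjusted p = 0.383), with overlapping groups. The call of *Rad21* was lost with the replicate block in DESeq2 (adjusted p = 0.257), and without WT2 (adjusted p = 0.0807), WT3 (0.134), KO2 (0.0674) or KO3 (0.113). The Sertoli, Leydig and macrophage markers, called higher in 10 of 10, 7 of 7 and 9 of 9 genes, moved with these 3 genes, and their part in the result was not tested.

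Ratios of 2 counts within a library do not depend on scaling, and 10 were computed after the values had been seen. *Sun1* per *Sun2* was 3.55, 3.64 and 2.95 in WT and 2.00, 1.74 and 1.85 in MLXKO. *Smc1b* per *Smc1a* was 35.6, 40.0 and 31.1 in WT and 26.3, 19.4 and 21.0 in MLXKO, and *Rec8* per *Rad21* was 0.826, 0.859 and 0.867 in WT and 0.723, 0.619 and 0.652 in MLXKO. *Stag3* per *Stag1* was 9.48, 10.5 and 9.75 in WT and 8.93, 8.13 and 8.66 in MLXKO and per *Stag2* 12.6 ± 0.945 for WT against 10.4 ± 1.08 for MLXKO (mean ± SD, n = 3 each). In all 5 of these ratios of a member to a paralog that somatic cells use, the MLXKO values lay below the WT values. *Sun1* is itself also used in somatic cells, so its ratio does not set a gene restricted to meiosis against a somatic one. Between meiotic genes, *Stag3* per *Smc1b* was 1.90, 2.07 and 2.04 in WT and 1.76, 1.83 and 1.89 in MLXKO, also without overlap, while *Rec8* per *Smc1b* and *Syce1*, *Syce2* and *Sycp2* per *Sycp1* overlapped. In a two-sided exact permutation test the 6 ratios without overlap each gave p = 0.1, or 0.167 after adjustment over the 10. The smallest p that 3 against 3 libraries allow is 0.1. These p-values give no support of their own, as the ratios were chosen after the values had been seen. For all 5 ratios of a member to a paralog, the separation was fixed in advance by the values of the single genes. For *Sun1* per *Sun2* and *Rec8* per *Rad21* the member was lower and the other gene higher, each with groups apart. For *Smc1b* per *Smc1a* only *Smc1a* had groups apart, and for *Stag3* per *Stag1* and per *Stag2* only *Stag3* had.

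**Figure D5:**
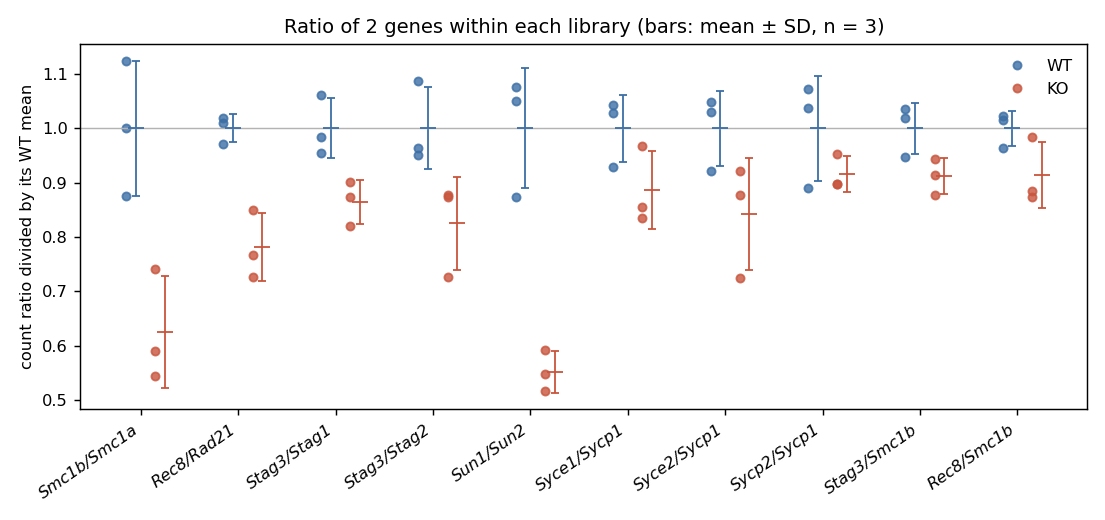
Ratio of the counts of 2 genes in the same library, divided by its WT mean (y axis, not starting at 0), for 10 ratios; points are libraries, bars the mean ± SD (n = 3), blue for WT and red for MLXKO. The first 5 and *Stag3* per *Smc1b* show no overlap between genotypes.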

How the data were processed

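RNA-seq libraries of whole testes from 3 WT and 3 MLXKO mice, of 22 samples in the series, were used, grouped by their labels. Per the labels and methods, Trizol RNA was sequenced as paired ends and aligned to mm10 with TopHat, and the methods name edgeR or DE-Seq for later steps. The counting tool, the annotation and any use of strand are not given in the sources used here. The authors deposited counts, whole reads per gene symbol without normalization, beside 6 columns of their own comparison (mean signal, fold change with its error, test score and p-values), which were not used.

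Of 17933 rows, 2 repeated another and were dropped. edgeR 4.0.16 (R 4.3.3) used its default count filter (minimum 10), TMM and the two-sided quasi-likelihood test, with no covariate beside genotype, and p-values were adjusted by Benjamini-Hochberg over 14640 genes. Depth was 16674678 to 19742726 counts. Levels per kb used GENCODE exon lengths, available for 97.8% of symbols, and coordinates follow GRCm38 (mm10). The members and lists were chosen with earlier results of these data known. All 36 members are named, *Mlx*, and of the 74 further genes those called, with values for up to 5 of the largest changes per direction, and *Psmc3ip*. The rule names one more gene, which is not reported here. Marker lists were used as summaries. Ratios, and the split of members by use in somatic cells, were chosen after the values were seen.

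The labels call the replicates paired and the methods describe littermates, so numbers 1 to 3 were taken as pairs. Deviations from group means correlated at 0.145, 0.0363 and 0.121 within pairs and at most at 0.0330 across them. No library was a duplicate: chi-square per degree of freedom was 2.73 to 8.26 within a genotype, highest for KO1. Alternatives were DESeq2 1.42.0, its size factors, library size alone, size factors of 9 spermatocyte markers, no filter, a minimum of 1 CPM in 3 libraries, blocking on the pair (edgeR, DESeq2), and each library left out. The code was tested on simulated data.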

Additional observations from a re-analysis of the deposited data

How the results depend on the processing

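The 10 members lower in MLXKO became 13 with DESeq2 and 15 with DESeq2's size factors, 3 with library size alone and 3 when scaled to spermatocyte markers, and 7 to 14 without any one library (7 without WT2, KO2 or KO3, 14 without KO1). Calls over all genes, both directions together, moved as well. They were 6649 of 14640 in the main fit, 5720 of 15843 with DESeq2 and 6831 of 14640 with its size factors. Without KO1 they were 7395 of 14787, without WT2 5215 of 14864, without KO2 5130 of 14784 and without KO3 5199 of 14763. The 1 higher became 0 with DESeq2, its size factors and the replicate block in either tool, 4 with library size alone or spermatocyte scaling, and 0 to 2 without any one library. The 74 further genes, 14 lower and 3 higher, gave 5 and 13 with library size alone, 3 and 14 with spermatocyte scaling, and 11 to 14 and 2 to 4 without any one library. With the replicate block, 11 members were lower in edgeR and 10 in DESeq2. It moved the calls of *Brca1*, *Hormad1* and, in DESeq2, *Dmc1*, and of no other member.

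No gene that changed sign was called after the change. With library size alone and with spermatocyte scaling, in that order, the LFC was 0.0088 and 0.023 for *Sycp1*, 0.070 and 0.085 for *Smc1b*, 0.039 and 0.054 for *Brca2*, 0.041 and 0.056 for *Mlh3*, 0.029 and 0.044 for *Hfm1*, 0.11 and 0.12 for *Eme1*, 0.087 and 0.10 for *Blm*, 0.050 and 0.065 for *Atr*, 0.034 and 0.048 for *Topbp1* and 0.043 and 0.058 for *Mdc1*. With spermatocyte scaling it was 0.0045 for *Hormad2* and 0.0087 for *Mei1*. *Meiob* gave -0.030 with DESeq2, -0.025 with its size factors, -0.00043 without a filter and -0.012 and -0.045 with the block in edgeR and DESeq2. Without any one library the LFC ran from -0.025 to 0.25 for *Prdm9*, from -0.18 to 0.10 for *Meiob*, from -0.062 to 0.041 for *Eme1* and from -0.15 to 0.11 for *Blm*. The causes were not tested, and a fit that leaves out a library also has fewer samples. With 3 libraries a genotype and these depths, *Mnd1* and *Rad21l*, at most 58 counts a library, had 95% intervals from -0.34 to 0.71 and from -0.71 to 0.21, so that changes of the size called in other members were not detectable for them.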

Other observations

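Members taken as restricted to meiosis and members that somatic cells also use were set apart after the values had been seen, from background knowledge. The split was not checked against expression in other tissues. Of 21 tested members taken as restricted, 8 were lower in MLXKO, with a median LFC of -0.16. Of all genes, 20.6% were lower and 24.8% higher. Of 14 also used in somatic cells (*Trip13*, *Rad51c*, *Brca1*, *Brca2*, *Mlh3*, *Mus81*, *Eme1*, *Exo1*, *Blm*, *Atm*, *Atr*, *Topbp1*, *Mdc1* and *Sun1*), 2 were lower and 1 higher, with a median LFC of -0.093. The difference between these groups was not tested. Without a filter on low counts, *Mei4* had an LFC of 1.02 (adjusted p = 0.156 from edgeR).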
